A study of Mus musculus with 6 samples.

Results

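The lineage markers described here are 10 human transcripts, 1 for each of 10 genes, out of 208848 transcripts in the RNA-seq table that was deposited. They were listed by identifier, and the list was made with earlier results of these data known. EPCAM (ENST00000263735.8_1), CDH1 (ENST00000261769.9_2), KRT19 (ENST00000361566.7_1) and KRT18 (ENST00000388835.3_2) stand for epithelial cells. CDH2 (ENST00000269141.7_1), VIM (ENST00000224237.9_2), COL1A1 (ENST00000225964.9_1) and COL1A2 (ENST00000297268.10_1) stand for mesenchymal cells, and PTPRC (ENST00000442510.7_3) and CD3E (ENST00000361763.8_1) for leukocytes. All 10 identifiers were found in the table. The question put to the values was which of the lineages the sequenced RNA showed, and whether the genotypes differed in it.

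The experiment compared liver cells of WT mice with those of Alb-Cre;UBR7fl/fl mice, in 3 samples of each genotype. In the latter, Cre recombinase under the albumin promoter, which is active in hepatocytes and not in fibroblasts or leukocytes, deletes Ubr7, a gene for a ubiquitin ligase, between its loxP sites, and the column of these cells is also called the knockout column in what follows. The level of Ubr7 itself was not analysed here. The methods of the study name male mice 8 weeks old on a C57BL/6 background and primary cells digested from liver, whereas the sample labels speak of conditionally immortalized liver cells in culture. The labels name no agent for either group. All identifiers of the table are human Ensembl transcripts and 0 are mouse identifiers, although every sample is labelled as mouse, and the species of the sequenced RNA was not tested.

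Each genotype has 1 column, which the authors name as a mean value, so that no SD between samples and no test of the genotypes can be given. The unit is FPKM, in which fragment counts are scaled for the length of the transcript and the depth of the library, and which allows levels of different genes to be compared within a column. Low FPKM values fell on steps of whole reads, and these steps were reached with totals of at least 24495956 reads for WT and 14197506 for Alb-Cre;UBR7fl/fl. A single total per column gave the values of 99.99% of the transcripts above 0. Whether each column is a mean over 3 samples, as its name says, or holds pooled or single counts was not tested. Each marker is therefore given with the smallest number of reads that yields its deposited values, and with an exact Poisson interval of 95% on those reads. Such an interval covers counting error only, and says nothing of the spread between mice.

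Epithelial cells form sheets that line organs and ducts and are held together by E-cadherin, with a skeleton of keratin filaments inside. Mesenchymal cells such as fibroblasts and hepatic stellate cells lie singly in a matrix of collagen, carry vimentin filaments and often N-cadherin. In the adult liver, hepatocytes are epithelial cells with keratins 8 and 18, while keratin 19 and EpCAM are known from bile duct and progenitor cells and are low in mature hepatocytes. Leukocytes of the liver, such as Kupffer cells and T cells, carry the surface phosphatase CD45.

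The epithelial markers were high and all others low or at 0, in both columns. The summed level of the 4 epithelial markers reached 1467 FPKM in WT, against 1584 FPKM in Alb-Cre;UBR7fl/fl. That of the 4 mesenchymal markers was 7.999 FPKM and 5.92 FPKM, respectively, and that of the leukocyte pair 0 and 0.0131 FPKM. The epithelial sum was thus 183 times the mesenchymal sum in WT and 268 times in Alb-Cre;UBR7fl/fl. The latter depended on the summary, with 557 times for medians and 579 times without the highest marker of each lineage, against 206 and 216 times in WT. With quantile normalization the ratios were 207 in WT and 233 in the knockout column. At least 1 FPKM was reached by 4 of 4 epithelial, 2 of 4 mesenchymal and 0 of 2 leukocyte markers in each column. Over all 208848 transcripts, 55.1% reached this level in WT and 52.5% in Alb-Cre;UBR7fl/fl. In RNA from many cells at once, fewer cells of a type and less RNA per cell cannot be told apart.

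**Figure D1:**
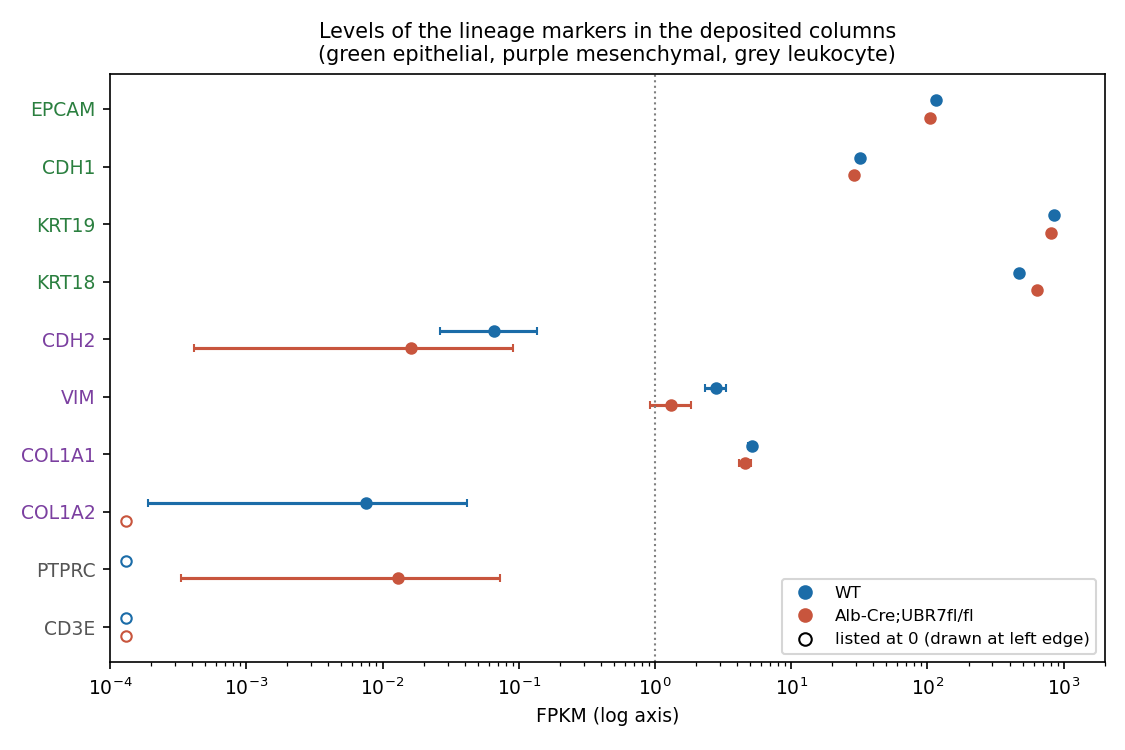
FPKM of the 10 markers on a log axis, WT in blue and Alb-Cre;UBR7fl/fl in red, with gene names in green (epithelial), purple (mesenchymal) and grey (leukocyte). Bars are exact 95% Poisson intervals on the recovered reads, the dotted line marks 1 FPKM, and open points at the left edge are listed at 0. All epithelial points lie between 28.7 and 846 FPKM, to the right of every other marker, the highest of which is COL1A1 at 5.13 FPKM in WT.

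KRT19, the keratin of simple and ductal epithelia, was the highest of the markers. Its level was 846 FPKM in WT (interval 836 to 856, from at least 28813 reads) and 811 FPKM in Alb-Cre;UBR7fl/fl (interval 799 to 824, from at least 16009 reads). Only 0.270% of all transcripts were higher in WT, where it ranked at place 564, and 0.317% in the knockout, at place 664.

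KRT18, the acidic keratin that hepatocytes and most simple epithelia share, came next. It stood at 473 FPKM in WT (interval 463 to 483, at least 9050 reads) and at 639 FPKM in Alb-Cre;UBR7fl/fl (interval 625 to 654, at least 7089 reads). Its rank was 1134 in WT and 866 in the knockout, so that 0.543% and 0.414% of all transcripts were higher. KRT19 exceeded KRT18 by 1.79-fold in WT (counting interval 1.75 to 1.83) and by 1.27-fold in the knockout (1.23 to 1.31). The order of these keratins was the same in both columns, but their levels lay closer together in the knockout.

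EPCAM, an adhesion molecule of the epithelial surface, was at 116 FPKM in WT (interval 112 to 119, at least 4880 reads). In Alb-Cre;UBR7fl/fl it was at 105 FPKM (interval 100.9 to 109, at least 2569 reads). These values exceeded those of 97.9% of all transcripts in WT and of 97.6% in the knockout.

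CDH1 encodes E-cadherin, the cadherin of epithelial junctions, and was the lowest of the epithelial markers. It had 32.2 FPKM in WT (interval 31.2 to 33.3, at least 3860 reads) and 28.7 FPKM in Alb-Cre;UBR7fl/fl (interval 27.4 to 29.96, at least 1990 reads). Of all transcripts, 90.7% were lower than CDH1 in WT and 89.8% in the knockout. EPCAM was 3.59 times as high as CDH1 in WT (interval 3.44 to 3.74) and 3.66 times in the knockout (3.45 to 3.88), intervals that overlap.

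COL1A1, the gene of the alpha 1 chain of type I collagen, was the highest of the mesenchymal markers. It had 5.13 FPKM in WT (interval 4.79 to 5.49, at least 845 reads) and 4.59 FPKM in Alb-Cre;UBR7fl/fl (interval 4.17 to 5.04, at least 438 reads). It was higher than 62.9% of all transcripts in WT and than 63.9% in the knockout, which places it near the middle of the table. Even CDH1, the lowest epithelial marker, was 6.29 times as high as COL1A1 in WT (interval 5.83 to 6.78) and 6.25 times in the knockout (5.63 to 6.95).

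COL1A2, which encodes the alpha 2 chain of the same collagen, did not share the level of COL1A1. It had 0.00754 FPKM in WT, from at least 1 read, and was listed at 0 in Alb-Cre;UBR7fl/fl. For its length, 3 reads would have given at most 0.0226 FPKM in WT and 0.0391 FPKM in the knockout, so that both values lie under this floor and no fold between the genotypes is given. Within WT, COL1A1 was 680 times as high as COL1A2, with a counting interval from 122 to 26878 because of the single read. The chains of type I collagen are normally made together by fibroblasts, and here the signal lay in 1 of them.

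VIM encodes vimentin, the intermediate filament of mesenchymal cells and of many cells in culture. It had 2.80 FPKM in WT (interval 2.33 to 3.33, at least 128 reads) and 1.32 FPKM in Alb-Cre;UBR7fl/fl (interval 0.919 to 1.84, at least 35 reads), and the intervals do not overlap. These levels exceeded 54.5% of all transcripts in WT and 49.7% in the knockout. KRT18 was 169 times as high as VIM in WT (interval 142 to 203) and 484 times in the knockout (348 to 696).

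CDH2, the gene of N-cadherin, was close to 0. It had 0.0660 FPKM in WT (interval 0.0265 to 0.136), from at least 7 reads, and 0.0163 FPKM in Alb-Cre;UBR7fl/fl (interval 0.000412 to 0.0906), from at least 1 read. The cadherins thus stood far apart, with CDH1 489 times as high as CDH2 in WT (interval 237 to 1216). In Alb-Cre;UBR7fl/fl the ratio was 1763, with an interval from 316 to 69680 that the single read of CDH2 makes wide. On the length of CDH2, 3 reads would have given at most 0.0283 FPKM in WT and 0.0488 FPKM in the knockout, so that its value in the knockout lies under this floor and this ratio rests on its interval alone.

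PTPRC, the gene of CD45 and the general marker of leukocytes, was listed at 0 in WT and had 0.0131 FPKM in Alb-Cre;UBR7fl/fl, from at least 1 read. On its length, 3 reads would have given at most 0.0227 FPKM in WT and 0.0392 FPKM in the knockout. CD3E, a chain of the T cell receptor complex, was listed at 0 in both columns, as were 50149 transcripts (24.0%) of the table. Its length could not be recovered without a read. On a transcript of 1000 bases, 3 reads would have come to 0.122 FPKM in WT and 0.211 FPKM in the knockout. At this depth, levels under such floors rest on a few reads or none.

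**Figure D2:**
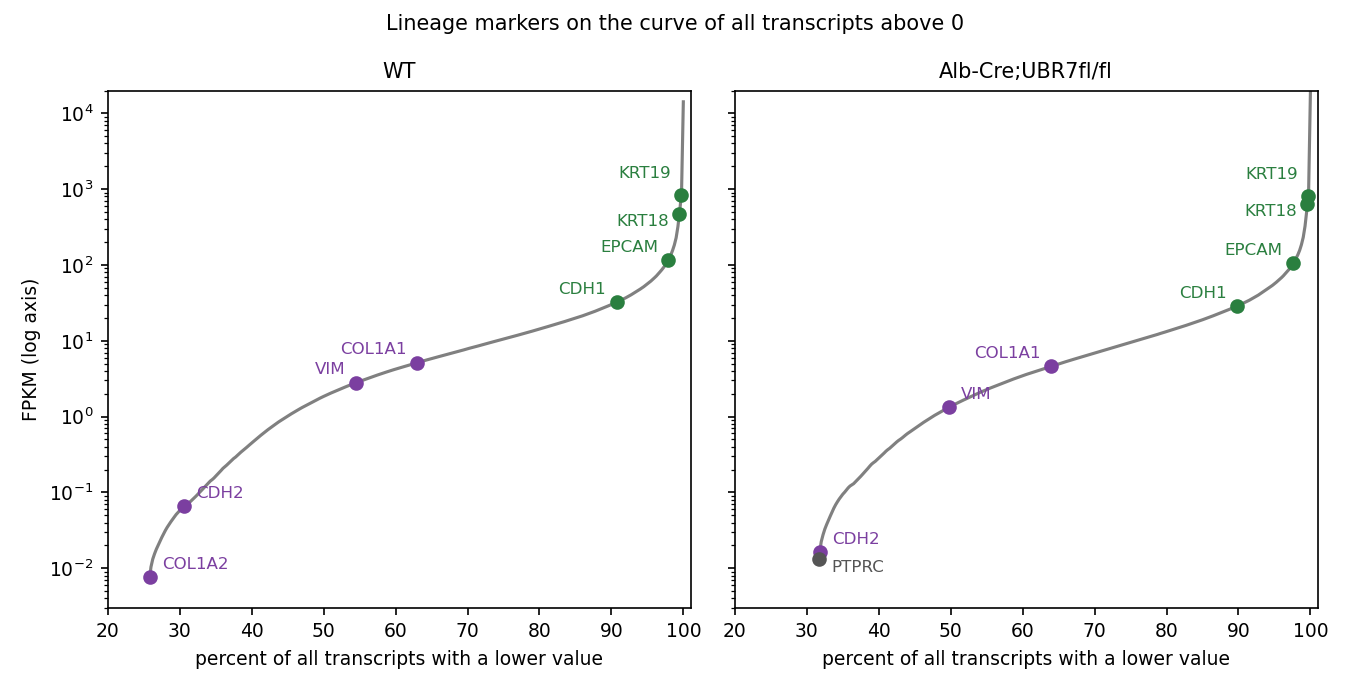
The grey curve gives the FPKM (log axis) of all transcripts above 0 against the percent of all transcripts with a lower value, for WT on the left and Alb-Cre;UBR7fl/fl on the right, and points mark the lineage markers above 0. The epithelial markers lie at the upper end, from 89.8% to 99.7%, COL1A1 and VIM lie between 49.7% and 63.9%, and CDH2, COL1A2 and PTPRC lie at the foot of the curve.

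The order of the levels was KRT19, KRT18, EPCAM, CDH1, COL1A1, VIM and CDH2 in both columns. Below CDH2, COL1A2 was the only marker above 0 in WT and PTPRC the only one in Alb-Cre;UBR7fl/fl. Neighbours down to VIM differed by more than their counting intervals within each column. The values of CDH2 and COL1A2 in WT, and of CDH2 and PTPRC in the knockout, had intervals that overlap.

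The genotypes were compared on log2(FPKM + 1), as Alb-Cre;UBR7fl/fl minus WT, for the 116955 transcripts that reached 1 FPKM in either column. The pseudocount of 1 makes the change of low transcripts appear smaller. No replicates stand behind these differences. Of the markers, 6 entered the comparison, and CDH2, COL1A2, PTPRC and CD3E stayed under 1 FPKM in both columns. None of the 6 was higher or lower by at least 2. Over all transcripts compared, 0.0770% were higher and 0.887% lower by this much, so that a count of 0 among 6 lies near the background. With the pseudocount of 1, none was past a limit of 1 either, against 0.866% higher and 4.80% lower over all transcripts. This depended on the pseudocount, since the difference of VIM was -1.03 with a pseudocount of 0.1.

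KRT18 was the only one of these 6 with a higher value in Alb-Cre;UBR7fl/fl. Its FPKM ratio, Alb-Cre;UBR7fl/fl over WT, was 1.35 (counting interval 1.31 to 1.39), a log2(FPKM + 1) difference of 0.43, and 7.25% of the transcripts compared had a larger difference. The value was 0.38 with quantile normalization of the columns and 0.53 with the median of all transcripts set to 0. The other 3 epithelial markers had slightly lower values in the knockout. Their FPKM ratios were 0.908 for EPCAM (interval 0.866 to 0.953), 0.890 for CDH1 (0.842 to 0.939) and 0.959 for KRT19 (0.940 to 0.977). On the log2(FPKM + 1) scale these were differences of -0.14, -0.16 and -0.06, against a median of -0.09 over all transcripts compared. Relative to this median KRT19 lay higher by 0.03, so that its direction turned with the scaling.

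Among the mesenchymal markers, VIM had the largest difference, at -0.71 on the log2(FPKM + 1) scale. With quantile normalization of the columns it was -0.45. Its FPKM ratio of 0.472 had a counting interval from 0.315 to 0.690. Of the transcripts compared, 9.87% had a lower difference than VIM, and the central 95% of them lay between -1.32 and 0.69, which includes all 6 markers. COL1A1 had an FPKM ratio of 0.894 (interval 0.795 to 1.005) and a difference of -0.13, which turned to 0.08 with quantile normalization of the columns. The FPKM ratio of CDH2, whose knockout value lies under the floor of 3 reads, was 0.246, with an interval from 0.00547 to 1.92 on 7 and 1 reads, so that a difference was not detectable at this depth. The median difference of the 6 markers was -0.14.

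**Figure D3:**
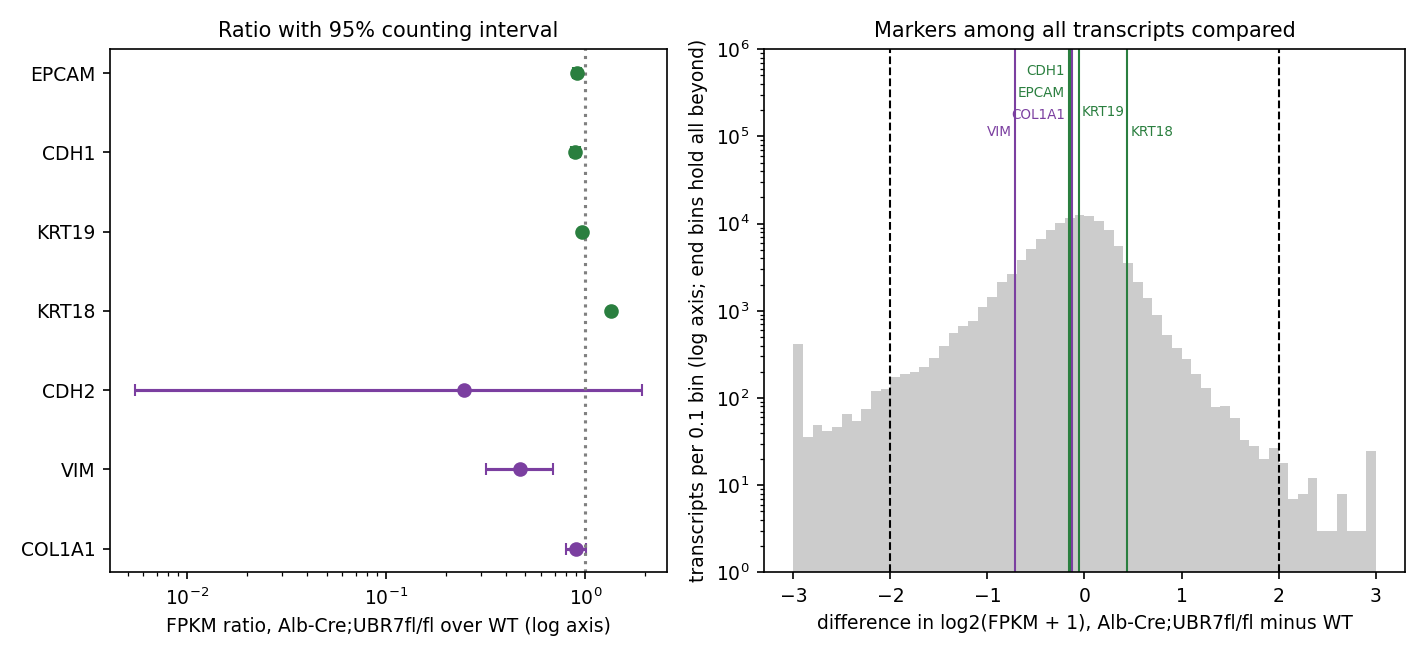
Left, FPKM ratio of Alb-Cre;UBR7fl/fl over WT (log axis) with exact 95% counting intervals for the 7 markers above 0 in both columns. Right, the log2(FPKM + 1) differences of the 116955 transcripts compared in bins of 0.1 (grey, log count axis, end bins holding everything beyond), with the 6 markers as lines and the limits of 2 dashed. KRT18 at 0.43 and VIM at -0.71 lie on either side of the other markers, and all lie inside the limits.

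Each marker is 1 transcript of its gene, and the rows next to it in the table are described here by position only. Which genes the adjacent rows belong to was not looked up, since a human annotation was not used here, so that they do not show how far a value rested on the transcript chosen. Around EPCAM, 6 of the 10 rows within a distance of 5 reached 1 FPKM in WT and 2 were listed at 0. The rows at distances of 1, 2 and 3 below held 119, 115 and 181 FPKM in WT, close to or above the marker itself at 116 FPKM. Around CDH1, 9 of 10 rows reached 1 FPKM in WT and 1 was listed at 0. The 5 rows below it held 32.3 to 41.1 FPKM in WT, and the first of them came from at least 3857 reads in WT and 1990 in Alb-Cre;UBR7fl/fl, against 3860 and 1990 for CDH1. The row below VIM gave the same recovered reads as VIM, 128 in WT and 35 in the knockout. Whether these particular rows hold the same reads was not tested, and they are not taken here as separate measurements. Adding up the recovered reads of every row gave 4.004 times the WT total and 4.024 times the Alb-Cre;UBR7fl/fl total. On these totals a read was thus counted in about 4 rows or more on average. Ranks and percentiles among all transcripts are therefore taken over rows that in part repeat the same reads.

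The adjacent rows of KRT18 split by their FPKM ratio of Alb-Cre;UBR7fl/fl over WT. The 4 rows at distances of 2 and 1 above and of 1 and 4 below had ratios of 1.35, 1.35, 1.35 and 1.33, like KRT18 itself at 1.35. The other 6 rows within a distance of 5 had ratios from 1.03 to 1.12. All 10 were high, between 219 and 947 FPKM in WT. The higher value of KRT18 in the knockout was thus shared by some adjacent rows and not by others. Whether the rows that did not share it belong to another gene was not looked up.

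The rows around VIM also carried low values, with 8 of 10 at 1 FPKM or more in WT and 2 of 10 in Alb-Cre;UBR7fl/fl. Around COL1A1, 6 of 10 rows reached 1 FPKM in WT and 5 of 10 in the knockout, and none exceeded COL1A1. Around KRT19, 6 of 10 rows reached 1 FPKM in each column, and around CDH2 8 of 10 rows were listed at 0 in each. Around COL1A2, 7 of 10 rows were listed at 0 in WT and 10 of 10 in the knockout. Around PTPRC, 10 of 10 rows were listed at 0 in WT, and the 2 above 0 in the knockout rested on at least 1 read each. The 7 rows from the one above CD3E to the fifth below it, the marker included, were listed at 0 in both columns.

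**Figure D4:**
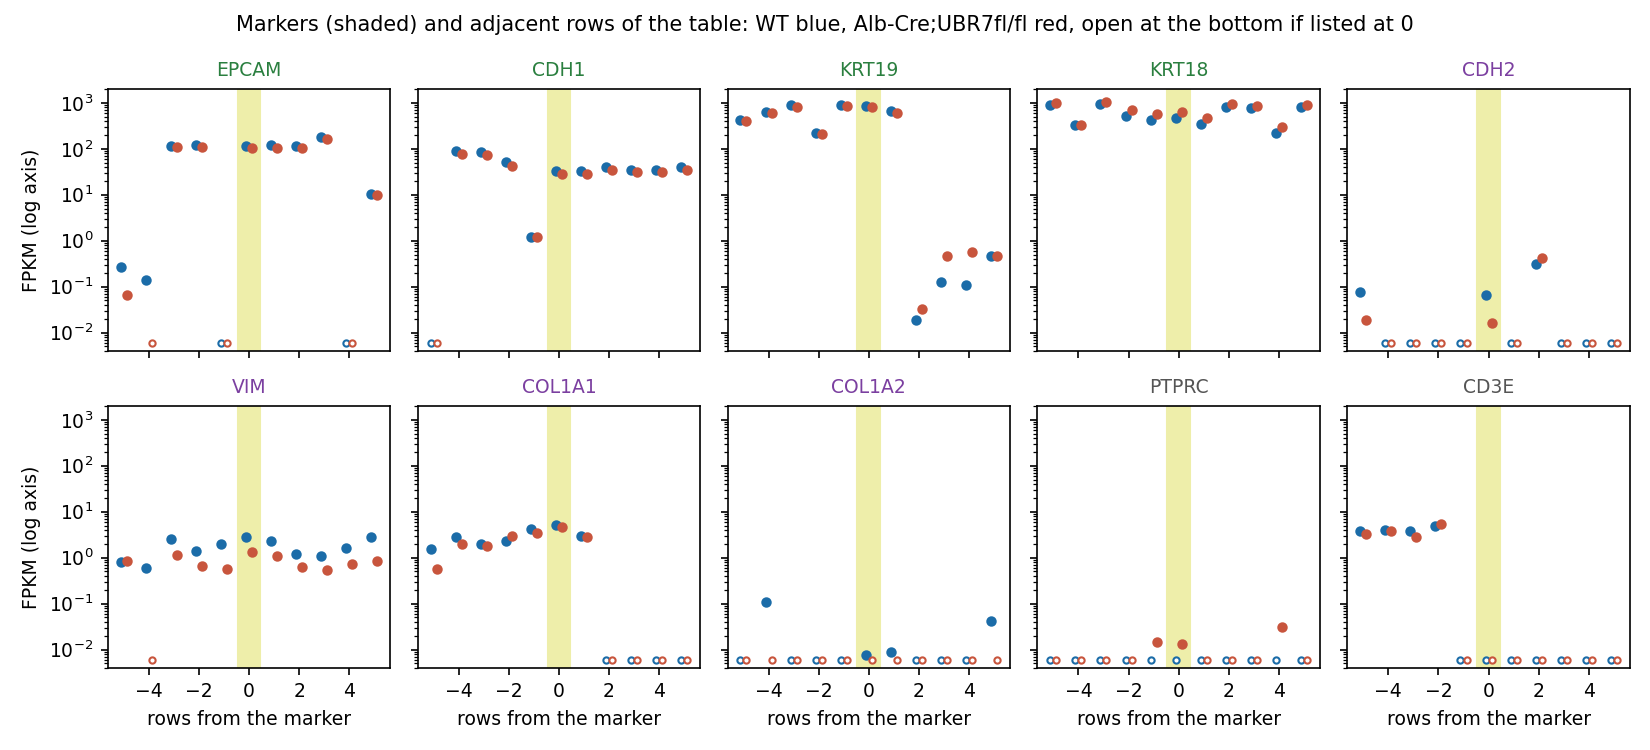
FPKM (log axis) of each marker (shaded) and of the 5 rows on either side of it in the table, WT in blue and Alb-Cre;UBR7fl/fl in red, with open points at the bottom for rows listed at 0. Rows around KRT18 all lie above 200 FPKM, rows around VIM and COL1A1 stay under 5 FPKM, and most rows around CDH2, COL1A2 and PTPRC are listed at 0.

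The markers of hepatocytes, endothelial cells and stellate cells, and further genes of the epithelial, mesenchymal and leukocyte lineages, were not analysed here, because no table that pairs the human identifiers with genes was used. The label of liver cells was therefore checked only as far as these 10 markers reach. They showed RNA with high keratins, EpCAM and E-cadherin, low vimentin and COL1A1, and N-cadherin, COL1A2 and leukocyte transcripts at or near 0. The paper speaks of hepatocytes and primary liver cells. KRT19 and EPCAM, which are low in mature hepatocytes, stood at 846 and 116 FPKM in WT. In Alb-Cre;UBR7fl/fl they stood at 811 and 105 FPKM. Which cell type the RNA came from was not tested.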

How the data were processed

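RNA of 3 WT and 3 Alb-Cre;UBR7fl/fl samples was sequenced on an Illumina HiSeq instrument. The methods name Bowtie2 and the human genome GRCh38, and the submitters' processing notes CASAVA 1.8 and TopHat2 2.0.6. The counting tool and annotation release are not given in the sources used here. A suffix such as _1, which GENCODE writes for transcripts mapped back to an earlier human build, closes 94.4% of the identifiers, so the build behind them is not certain. The authors deposited FPKM values in 2 columns, 1 per genotype, each named as a mean, and no SD or n can be given.

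The markers and lists were chosen with earlier results of these data known, and all 10 markers were to be named. Differences in log2(FPKM + 1) had a minimum of 1 FPKM in either column and a limit of 2. The planned test over samples could not be run on 1 value per genotype. Of 23202 transcripts with both values above 0 and below 1 FPKM, 2569 shared 1 ratio, which gave the ratio of the totals, 1.73. The smallest whole reads and lengths within the rounding of the printed values gave the values of 99.99% of 158699 transcripts. The search was also run on simulated rows, drawn independently with a single total per column. It was therefore not tried on rows that share reads or on means over samples. Reads and lengths are lower bounds, so the counting intervals are at their widest if each value is 1 count. The intervals leave out the spread between mice. Ratios have exact conditional binomial intervals. Alternatives were other sets for the ranks, other summaries over markers, a pseudocount of 0.1, other filters, a limit of 1, median centring and quantile normalization. Python 3.11.15 was run with pandas 2.3.3, scipy 1.17.1 and numpy 2.4.6, and figures were drawn with matplotlib 3.10.9.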

Additional observations from a re-analysis of the deposited data

How the results depend on the processing

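No paired analysis was possible because each genotype has a single column and so a single value. Leaving out each replicate was not run for the same reason. CDH1, the lowest epithelial marker, exceeded 90.7% of all transcripts in WT and 89.8% in Alb-Cre;UBR7fl/fl. Among transcripts above 0 these shares were 87.5% and 85.0%, and among those with at least 1 FPKM they were 83.2% and 80.5%, since fewer low transcripts then count. The epithelial over the mesenchymal level was 183 in WT and 268 in Alb-Cre;UBR7fl/fl as a ratio of sums. It was 206 and 557 with medians, 216 and 579 without the highest marker of each lineage, and 207 and 233 with quantile normalization. In both columns, each of these alternatives moved the ratio by more than the counting error of the summed mesenchymal reads. With medians and without the highest marker, the value of Alb-Cre;UBR7fl/fl moved by more than 1.5 times. In the knockout, CDH2 was at 0.0163 FPKM and COL1A2 at 0. Without COL1A1 the mesenchymal sum thus rested almost wholly on VIM, at 1.32 FPKM from at least 35 reads. The median likewise lay between VIM and CDH2. The counts of markers past the limit were 0 under each of the 6 alternatives. The filters could not have raised these counts, since markers under 1 FPKM cannot differ by 2 and a stricter filter only removes markers. Median centring moved each difference by only 0.09. The differences of single markers could move under the other pseudocount, quantile normalization and median centring. Of these 18 values, 11 moved by less than the wider side of their counting interval and 7 by more. That interval was taken on the log2 FPKM ratio without a pseudocount, and it is wider for markers with fewer reads. The split therefore also depends on the number of reads. VIM went from -0.71 to -1.03 with a pseudocount of 0.1, to -0.45 with quantile normalization and to -0.62 with median centring. KRT19 changed its direction with median centring (0.03) and COL1A1 with quantile normalization (0.08). Depth limits CDH2, COL1A2, PTPRC and CD3E most.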
